A study of Capra hircus with 21 samples.

Results

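The genes described here are the WNT pathway genes of the goat (Capra hircus) followed from the mature oocyte to the blastocyst. They were chosen by symbol alone: the WNT ligands, the FZD receptors and the co-receptor LRP6, the acyltransferase PORCN, the cytoplasmic genes DVL, AXIN, APC, GSK3 and CTNNB1, the nuclear factors LEF1 and TCF7 to TCF7L2, and the secreted inhibitors DKK and SFRP. The rule matched 46 of the 19040 genes in the deposited table. It also matched CTNNBL1 by its letters, which codes for a protein found with splicing factors and is not part of the pathway. LRP5, FZD2, GSK3A, WNT1, WNT4, WNT8A, WNT8B and WNT10B were not analysed here.

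RNA was sequenced from oocytes that had matured in vivo and from embryos that had developed in vivo to 2, 4, 8 or 16 cells, to the morula or to the blastocyst. Each of the 7 stages had 3 libraries lettered A to C, 21 in all, placed by their titles. All groups were untreated as far as the labels say. Breed, age, the number of donors and the number of oocytes or embryos in a library were not given in the sources used here. A p-value below thus rests on the spread among the 3 libraries within a stage, pooled over all 7 stages, which may be technical. Libraries of a stage outside a comparison can therefore change its p-value.

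WNT ligands are secreted lipid-modified proteins whose lipid is attached by PORCN, and they bind FZD receptors together with the co-receptors LRP5 and LRP6. Without a ligand, a complex of AXIN, APC and GSK3B marks β-catenin, the product of CTNNB1, for destruction. With a ligand, DVL proteins recruit that complex to the membrane, β-catenin accumulates, enters the nucleus and acts on target genes through LEF1 and the TCF factors. DKK1 and its close relative DKK2 bind LRP5 and LRP6, and SFRP proteins bind the ligands themselves. In preimplantation embryos β-catenin also works at cell contacts, where it links E-cadherin to the cytoskeleton.

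Levels are given as RPM, reads scaled to the total reads of the library, which is the deposited RPKM without its constant of 0.01 and without its division by the span of the gene. A gene's RPM can be followed across stages but not compared with that of another gene. Comparisons of level between genes use RPKM per span, introns included, which places genes with long introns low: member spans ran from 1.75 kb (FZD10) to 211.6 kb (GSK3B). Listed genes held between 8.47 M (morula B) and 26.7 M (2-cell C) reads (M, mega), and 3 reads amounted to 0.0450 to 0.125 RPM, the floor below which a level cannot be told from no reads. Floors and read numbers cover counting error only. Listed genes held from 24.4% (blastocyst A) to 42.0% (8-cell A) of the total reads, so an RPM level also depends on that share.

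Libraries 16-cell C and morula C stood apart from their stage mates. Over all genes tested, 16-cell C correlated at 0.864 with the 8-cell libraries against 0.701 and 0.700 for 16-cell A and B, and morula C at 0.916 with the 16-cell libraries against 0.781 and 0.818 for morula A and B. The summed level of 7 oocyte genes (GDF9, BMP15, BTG4 and others) was 2901 RPM in 16-cell C against 981 and 789.8 RPM in A and B, and 1115 RPM in morula C against 38.3 and 74.0 RPM. Blastocyst B had the widest spread of rare reads, with at least 1 read in 16184 of 19040 genes against 11180 to 15041 in the other libraries. Results that rest on these libraries are given with and without them.

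The stage labels were checked against marker genes. The oocyte list summed to 8839 RPM on average in oocytes and to 9.74 RPM in blastocysts, and the keratin KRT8 rose from 0 reads in oocytes to 957 ± 329 RPM (SD, n = 3) in blastocysts. KRT8 led a list of 9 blastocyst genes, which summed on average to 16.6 RPM in oocytes and 1017 RPM in blastocysts. By the test described below, 5 of 7 rose and 0 fell from oocyte to blastocyst, and 3 rose and 1 fell from morula to blastocyst. Of the 9, 1 stayed under 1 RPM in every library. Of 9 cumulus and granulosa genes found, 7 stayed under 1 RPM in every library, and the list summed to between 0.812 and 58.3 RPM, led by STAR and TNFAIP6. The oviduct and uterus list (5 genes found, 3 always under 1 RPM) summed to between 0.177 and 23.1 RPM. The blood list (7 found, 5 always under 1 RPM) did not pass 3.30 RPM. The stroma and vessel list (9 found, 1 always under 1 RPM) was led by DCN, at 122 ± 19.4 RPM in oocytes and 1.92 ± 1.46 RPM in blastocysts. In morula C the cumulus and stroma lists summed to 51.6 and 60.7 RPM against at most 0.875 and 9.20 RPM in morula A and B. The part of these genes in the results below was not tested.

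Of the 46 members, 21 reached 1 RPM in at least 3 libraries and were tested, and 25 did not. Each pair of stages was compared with limma on log2(RPM + 1), and a call needed an adjusted p (Benjamini-Hochberg, over 10384 genes) below 0.05 and a log2 change of at least 1 in either direction. Fold changes on this scale understate the change of low genes. Some members passed the filter only through the stages where they were high, so that a difference from the other stages was in part built in. DKK3 reached 1 RPM in 6 libraries, all from the 2-cell to the 8-cell stage, FZD10 in 8 and FZD4 in 3, all from the 16-cell stage on, WNT16 in 6 from the 8-cell stage to the morula, and WNT3 in 3 of the oocyte and the 2-cell stage. A gene can fall in a bulk sample because cells hold less of its RNA or because fewer cells of a type are present. As RPM is a share of the reads, a gene also falls when other RNA takes more of them. These cannot be told apart.

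**Figure D1:**
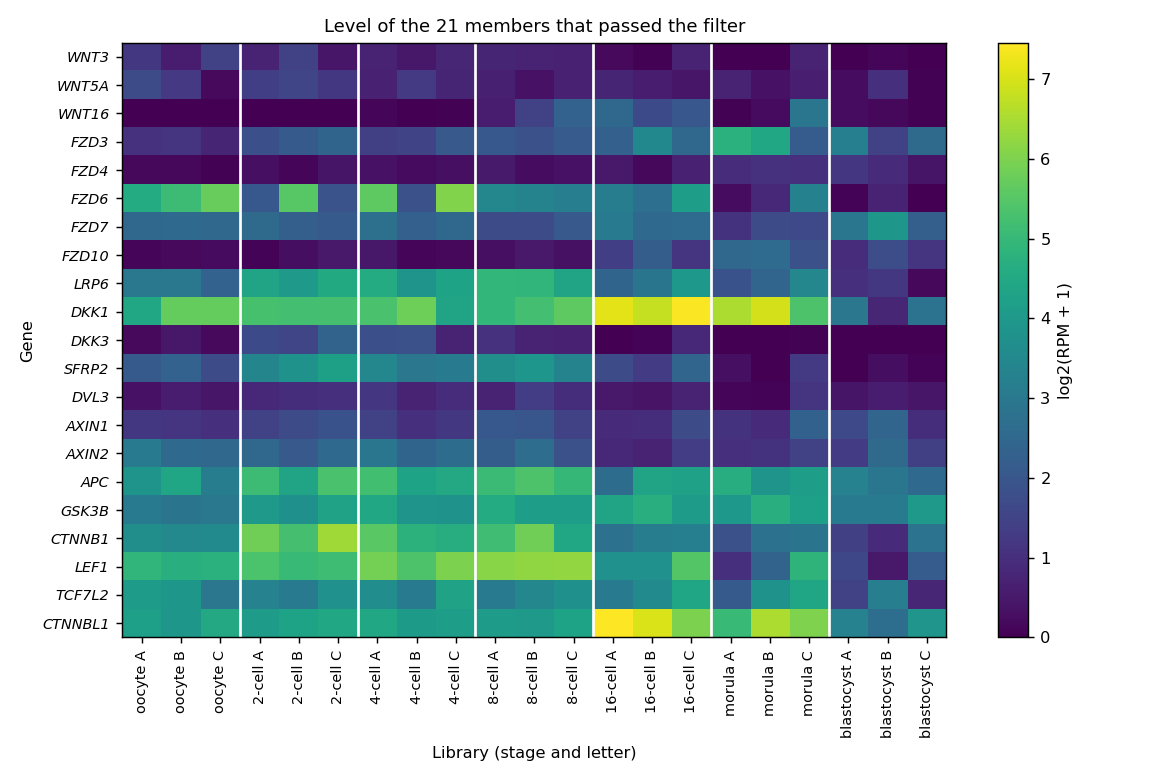
Heatmap of the 21 members that passed the filter (rows, ordered by role from ligands to nuclear factors, with CTNNBL1 last) in the 21 libraries (columns, 3 per stage, white lines between stages). Colour is log2(RPM + 1). LEF1 is brightest up to the 8-cell stage, DKK1 at the 16-cell stage and in the morula, and FZD6 changes between libraries of the 2-cell and of the 4-cell stage.

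Among the ligands, only WNT3, WNT5A and WNT16 reached the filter, and their highest level in any library was 6.54 RPM (WNT16 in morula C). The 14 ligand genes together summed to between 2.23 ± 1.37 RPM in blastocysts and 4.98 ± 1.12 RPM in 16-cell embryos (mean ± SD, n = 3 here and below).

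WNT16, a ligand best known from bone and skin, had no read in any of the 6 oocyte and 2-cell libraries. Libraries A, B and C of the 4-cell stage held 0.0827, 0 and 0.0229 RPM and those of the 8-cell stage 0.5004, 1.73 and 4.099 RPM. At the 16-cell stage it stood at 4.73, 2.16 and 3.05 RPM, in the morula at 0.0357, 0.167 and 6.54 RPM and in the blastocyst at 0.177, 0.123 and 0.0284 RPM. All 8-cell and 16-cell libraries thus lay above every oocyte, 2-cell and 4-cell library, while morula A and B were near the floor and morula C held the highest value of all. Its 16-cell mean of 3.31 ± 1.303 RPM was at least 56.4-fold higher than oocytes could hold at 3 reads in each library, and at least 68.5-fold higher than 2-cell embryos.

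WNT3, a ligand of the β-catenin branch, fell from its highest level in oocytes. The oocyte libraries held 1.29, 0.512 and 1.74 RPM and the 2-cell libraries 0.628, 1.72 and 0.3602 RPM. At the 4-cell and 8-cell stages it lay between 0.398 and 0.756 RPM, in 16-cell libraries at 0.137, 0.0251 and 0.651 RPM and in morulae at 0, 0 and 0.658 RPM. Blastocysts A and C had none and B had 0.0702 RPM. Morula C and 16-cell C were again the high libraries of their stages. WNT5A, a ligand of the β-catenin-independent branch, ranged from 0.0284 to 2.29 RPM, with stage means of 1.26 ± 1.09 RPM in oocytes and 0.408 ± 0.534 RPM in blastocysts and overlapping libraries.

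The other 11 ligands stayed at the edge of detection, and a few had reads in some stages only. WNT5B was read almost only in blastocysts, with 35, 18 and 18 reads in libraries A, B and C and 1 read in the other 18 libraries together, in morula A. That mean of 0.533 ± 0.229 RPM was at least 9.07-fold higher than the oocyte floor of 3 reads in each library. WNT11, a ligand of the planar cell polarity branch, had 12 reads in all up to the 8-cell stage, 11 of them in 2-cell A, and then 7, 25 and 8 reads in 16-cell libraries, 41, 48 and 24 reads in morulae and 10, 53 and 19 reads in blastocysts. WNT7A, WNT2B and WNT2 were spread the other way. WNT7A had 38, 71 and 57 reads in 2-cell libraries and 0, 0 and 1 reads in morulae. WNT2B had 44, 63 and 62 reads at the 2-cell stage and 3, 2 and 3 reads in blastocysts, but its whole span lies inside ST7L on the opposite strand, and without stated strandedness their reads cannot be separated. WNT2 had 43, 18 and 9 reads at the 2-cell stage and 0 in all 6 morula and blastocyst libraries. The highest levels of the rest were 0.579 RPM for WNT10A, 0.404 RPM for WNT7B, 0.105 RPM for each of WNT9A and WNT9B (all 4 in blastocyst B), 0.151 RPM for WNT6 in 16-cell B and 0.0931 RPM for WNT3A in 16-cell C. Of the 25 members below the filter, 20 had a read in blastocyst B against 7 and 11 in blastocysts A and C and 5 to 15 in the other stages. The 6 reads each that WNT9A, WNT9B and the inhibitor SFRP5 had in blastocyst B moved with its wide spread of rare reads, and the part of that spread was not tested.

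PORCN, which attaches the lipid that ligands need for secretion, had at least 5 reads in every library but passed 1 RPM only in morula A, at 1.64 RPM. Its stage means ran from 0.349 ± 0.2601 RPM in blastocysts to 0.931 ± 0.616 RPM in morulae, where A, B and C held 92, 13 and 38 reads.

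The receptors differed in their course from gene to gene. FZD3, FZD4, FZD6, FZD7 and FZD10 reached the filter. The 9 FZD genes together summed to 42.04 ± 14.3 RPM in oocytes, 15.5 ± 0.532 RPM in 8-cell embryos, 25.1 ± 3.899 RPM in 16-cell embryos, 27.3 ± 8.14 RPM in morulae and 16.2 ± 5.31 RPM in blastocysts. Without FZD6, which fell, the 8 other FZD genes summed to 5.98 ± 0.422 RPM in oocytes and 6.48 ± 0.749 RPM in 8-cell embryos. They summed to 14.8 ± 4.15 RPM in 16-cell embryos, 24.1 ± 12.9 RPM in morulae and 15.97 ± 5.02 RPM in blastocysts. In morulae A, B and C that sum was 33.4, 29.4 and 9.41 RPM, of which FZD3 alone held 78.6, 70.8 and 37.4%.

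FZD6 (chromosome 14, 20958973 to 20995765 in the table's coordinates), a receptor known from planar cell polarity, was high in oocytes and all but absent in blastocysts. Oocyte libraries held 22.8, 33.6 and 51.7 RPM, 8-cell libraries 9.86, 9.16 and 8.05 RPM and blastocysts 0.0442, 0.632 and 0 RPM, with 0 reads in blastocyst C. In between its libraries split: the 2-cell stage had 3.19, 45.3 and 2.73 RPM from 188, 2765 and 182 reads, and the 4-cell stage 48.1, 2.63 and 64.6 RPM from 2326, 172 and 2820 reads. So 2-cell B, 4-cell A and 4-cell C lay with the oocytes, and 2-cell A, 2-cell C and 4-cell B lay below every 8-cell library. At the 16-cell stage the values were 8.01, 5.58 and 17.3 RPM and in morulae 0.178, 0.791 and 8.72 RPM, again with library C highest.

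On the log2(RPM + 1) scale the FZD6 libraries spanned 3.63 in 2-cell and 4.18 in 4-cell embryos, and 13 and 8 of the 10384 genes tested, FZD6 included, spanned at least as much. The 3 high and 3 low libraries were apart by 3.46 at their nearest, whereas the next gene with the same split, BSPH1, was apart by 1.86. The gene next to it by position, BAALC, did not share the split. BAALC held 3.58, 5.67 and 4.70 RPM in 2-cell A, B and C and 2.03, 3.55 and 3.71 RPM in 4-cell A, B and C. CTHRC1, on the other side, had at most 3 reads in these libraries. ATP6V1C1, which lies beyond BAALC, did not share the split either. It held 299, 312 and 265 RPM in 2-cell A, B and C and 248, 234 and 246 RPM in 4-cell A, B and C. The 3 high libraries held fewer reads in genes (23.4 M in 2-cell B, 18.8 M in 4-cell A and 15.5 M in 4-cell C) than the 3 low ones (24.2 M in 2-cell A, 26.7 M in 2-cell C and 24.97 M in 4-cell B), and the part of depth in the split was not tested. The split was singled out after the values were seen.

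FZD7, a receptor of the β-catenin branch, was read in every library at 1.14 RPM or more. Oocytes held 4.68, 4.84 and 4.604 RPM, 8-cell libraries 2.23, 2.35 and 3.28 RPM, 16-cell libraries 7.19, 4.83 and 5.09 RPM, morulae 1.14, 2.25 and 2.15 RPM and blastocysts 6.56, 14.5 and 3.803 RPM. It was therefore lower in the 3 morula libraries than in every 16-cell or blastocyst library. The 2-cell and 4-cell libraries, from 3.36 to 5.70 RPM, overlapped those of the oocyte.

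FZD10 and FZD3 were highest in the morula. FZD10 stayed between 0.0509 and 0.420 RPM in all 12 libraries up to the 8-cell stage, stood at 1.602, 3.62 and 1.19 RPM in 16-cell libraries, 4.78, 5.08 and 2.57 RPM in morulae and 0.928, 2.404 and 1.16 RPM in blastocysts. Every later library was thus above every one of the first 12. FZD3, which has roles in axon guidance and planar polarity, held 1.0997, 1.24 and 0.703 RPM in oocytes and 1.65 to 4.25 RPM from the 2-cell to the 8-cell stage. It reached 3.93, 10.2 and 4.58 RPM in 16-cell embryos, 26.3, 20.8 and 3.52 RPM in morulae and 8.22, 1.702 and 4.94 RPM in blastocysts. Morula C held 3.52 RPM, as low as the 8-cell libraries, beside 2 high morulae. FZD4 rose slowly from 0.0858 ± 0.0424 RPM in oocytes to 1.02 ± 0.09404 RPM in morulae, a step of 0.56 from the 16-cell stage on the log2 scale (adjusted p = 0.0493), below the size needed for a call.

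FZD1, FZD5, FZD8 and FZD9 were not expressed above 0.281 RPM in any library. Their highest values were 0.201 RPM (16-cell B), 0.240 RPM (2-cell C), 0.263 RPM and 0.281 RPM (both blastocyst B).

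**Figure D2:**
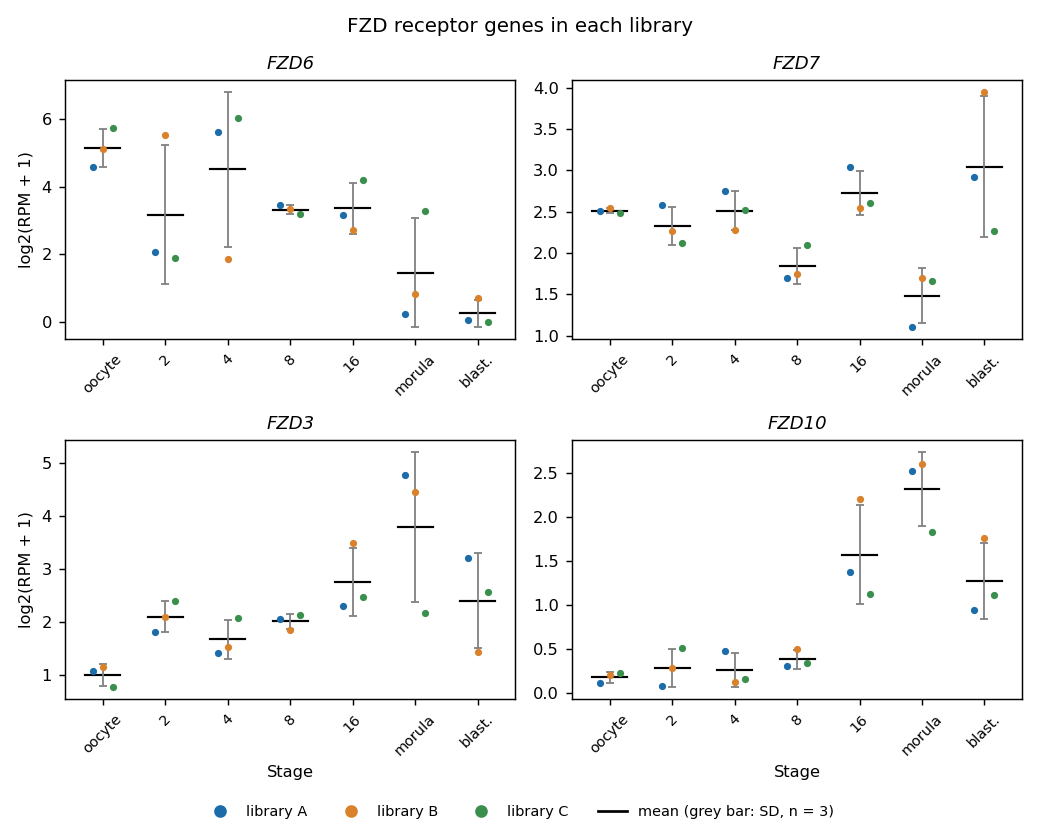
Level of FZD6, FZD7, FZD3 and FZD10 in each library, as log2(RPM + 1) against stage (points: libraries A to C, black line: mean, grey bar: SD, n = 3; the vertical axes differ and do not start at 0). The FZD6 points fall into a high and a low set at the 2-cell and the 4-cell stage, FZD7 dips in the morula, and FZD3 and FZD10 peak there.

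LRP6, the co-receptor that DKK1 blocks, was low in the oocyte, higher through the cleavage stages and nearly lost in the blastocyst. Libraries A, B and C held 6.88, 6.91 and 4.09 RPM in oocytes, 19.4, 15.4 and 22.3 RPM in 2-cell embryos, 23.1, 13.4 and 19.1 RPM in 4-cell embryos and 29.6, 28.9 and 19.6 RPM in 8-cell embryos. They then held 4.28, 6.39 and 14.9 RPM in 16-cell embryos, 2.68, 4.41 and 9.91 RPM in morulae and 1.04, 1.32 and 0.114 RPM in blastocysts. The 2-cell libraries lay wholly above the oocytes, the 16-cell libraries wholly below the 8-cell ones and the blastocysts wholly below the morulae, with 16-cell C and morula C the highest of their stages.

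Of the secreted inhibitors DKK1, DKK3 and SFRP2 reached the filter. DKK1 (chromosome 26, 44553671 to 44559848) was level through the first cleavages, rose at the 16-cell stage and was almost gone in the blastocyst. Oocytes held 21.01, 50.4 and 50.7 RPM, 2-cell libraries 37.9, 36.9 and 37.2 RPM, 4-cell libraries 38.8, 55.3 and 19.6 RPM and 8-cell libraries 29.6, 36.7 and 47.8 RPM. The 16-cell libraries held 142, 111 and 169 RPM, morulae 92.8, 126 and 40.7 RPM and blastocysts 6.78, 0.737 and 6.16 RPM. Every 16-cell library was above each of the 12 earlier ones, morula C had come back to their range, and every blastocyst library lay below all others.

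Per unit of span, DKK1 had the highest level of the members at 6 of the 7 stages. It stood at 6.59 ± 2.76 RPKM in oocytes, where FZD6 was next at 0.9801 ± 0.397 RPKM, and at 22.7 ± 4.68 RPKM at the 16-cell stage, where FZD10 was next at 1.22 ± 0.746 RPKM. At the 2-cell stage CTNNB1 was next at 4.76 ± 1.89 RPKM, which was within its spread of the 6.04 ± 0.0847 RPKM of DKK1. In blastocysts the order was FZD7 at 1.38 ± 0.925 RPKM, FZD10 at 0.858 ± 0.454 RPKM and DKK1 at 0.738 ± 0.538 RPKM, and these 3 did not differ beyond their spread.

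SFRP2, which binds ligands, held 3.28, 4.05 and 2.35 RPM in oocytes, 9.49, 13.3 and 17.8 RPM in 2-cell embryos, 9.92, 6.77 and 7.29 RPM in 4-cell embryos and 11.8, 14.2 and 9.003 RPM in 8-cell embryos. It held 2.31, 1.48 and 4.42 RPM in 16-cell embryos, 0.232, 0 and 1.41 RPM in morulae and 0, 0.211 and 0.0568 RPM in blastocysts. All 2-cell libraries lay above the oocytes, all 16-cell libraries below the 8-cell ones and all morulae below the 16-cell ones, by a narrow gap between 1.41 RPM in morula C and 1.48 RPM in 16-cell B.

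DKK3, a relative of DKK1 that does not clearly act on LRP6, was highest at the 2-cell stage. Oocytes held 0.152, 0.384 and 0.148 RPM, 2-cell libraries 2.21, 1.93 and 4.14 RPM, 4-cell libraries 2.52, 2.62 and 0.642 RPM and 8-cell libraries 1.11, 0.687 and 0.599 RPM. It stood at 0, 0.0503 and 0.768 RPM in 16-cell and 0, 0 and 0.0321 RPM in morula libraries, and had no read in any blastocyst. The 2-cell mean of 2.76 ± 1.205 RPM was at least 40.6-fold higher than 3 reads in each blastocyst library would give. DKK2 did not pass 0.420 RPM (2-cell C) and had no read in blastocysts or in morulae A and B. Part of its span (4586 bp) overlaps an unnamed gene on the opposite strand.

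SFRP4 was read in a pair of libraries, with 33 reads in 16-cell C and 54 in morula C (0.867 RPM) against 16 reads in the other 19 libraries together. SFRP1 (at most 0.126 RPM, 16-cell B) and SFRP5 (at most 0.105 RPM, blastocyst B) stayed near the floor throughout.

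In the cytoplasm, CTNNB1 (chromosome 22, 13703311 to 13715752), which codes for β-catenin, was high only from the 2-cell to the 8-cell stage. Oocytes held 11.9, 10.4 and 10.96 RPM, the 2-cell stage 56.8, 37.03 and 83.8 RPM, the 4-cell stage 45.6, 26.7 and 24.1 RPM and the 8-cell stage 34.99, 55.8 and 20.6 RPM. The 16-cell stage held 5.86, 7.82 and 8.28 RPM, morulae 2.64, 6.04 and 6.37 RPM and blastocysts 1.68, 0.877 and 6.16 RPM. The oocytes lay close together, below every library of the next 3 stages and above every later one. The 2-cell mean of 59.2 ± 23.5 RPM was 20.4 times the blastocyst mean of 2.905 ± 2.85 RPM.

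APC, a scaffold of the destruction complex, held 13.6, 20.04 and 7.95 RPM in oocytes, 33.7, 19.5 and 38.5 RPM in 2-cell embryos, 36.001, 19.1 and 21.6 RPM in 4-cell embryos and 32.6, 40.3 and 30.1 RPM in 8-cell embryos. Later libraries held 5.22, 19.4 and 18.3 RPM in 16-cell embryos, 24.2, 13.4 and 16.9 RPM in morulae and 8.99, 6.58 and 4.85 RPM in blastocysts. The 16-cell libraries did not overlap the 8-cell ones, 16-cell A being far lower than B and C, and the blastocysts did not overlap the morulae.

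AXIN2, a scaffold that is itself a widely used target of the β-catenin branch, was highest in oocytes at 7.26, 4.903 and 4.79 RPM. The 2-cell and 4-cell libraries lay between 3.24 and 6.59 RPM, and the 8-cell libraries at 3.56, 5.31 and 2.62 RPM. It then held 0.781, 0.629 and 1.54 RPM in 16-cell embryos, 1.03, 1.12 and 1.702 RPM in morulae and 1.46, 4.97 and 1.65 RPM in blastocysts. Blastocyst B, in RPM at the level of the oocytes, stood apart from blastocysts A and C. Its paralogue AXIN1 stayed between 0.875 and 4.37 RPM, with the lowest stage mean in oocytes (1.19 ± 0.139 RPM) and the highest at the 8-cell stage (2.61 ± 0.755 RPM).

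GSK3B, the kinase of the destruction complex, kept within a narrower range than CTNNB1. Oocytes held 7.34, 6.25 and 6.93 RPM, 2-cell libraries 14.99, 12.4 and 18.7 RPM, 4-cell libraries 20.7, 13.5 and 13.04 RPM and 8-cell libraries 23.1, 17.2 and 17.3 RPM. The 16-cell libraries held 19.5, 24.7 and 16.4 RPM, morulae 14.9, 24.3 and 17.5 RPM and blastocysts 7.33, 7.48 and 15.01 RPM. The oocytes lay below every library from the 2-cell stage to the morula, and in RPM blastocysts A and B were back at the oocyte level. Listed genes held 24.4 and 24.9% of the reads of blastocysts A and B, against 40.5% in blastocyst C. In oocytes A, B and C they held 35.6, 35.3 and 36.3%, and the part of this share in the GSK3B levels was not tested.

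DVL3 was the most read of the DVL genes, which pass the signal from the receptor, with stage means from 0.381 ± 0.103 RPM in oocytes to 1.06 ± 0.437 RPM in 8-cell embryos. DVL2 reached 0.424 RPM in 2-cell A and DVL1 0.246 RPM in blastocyst B, where 14 of its 36 reads lay. CTNNBIP1, which keeps β-catenin from its nuclear partners, had at most 5 reads in any library (0.115 RPM in 4-cell C).

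Among the nuclear factors, LEF1 (chromosome 6, 17399688 to 17523217) climbed to the 8-cell stage and then fell. Oocytes held 29.1, 25.3 and 26.01 RPM, 2-cell libraries 39.6, 31.8 and 34.4 RPM, 4-cell libraries 58.98, 40.5 and 62.5 RPM and 8-cell libraries 69.1, 73.5 and 74.4 RPM. The 16-cell libraries held 12.7, 12.5 and 42.9 RPM, morulae 1.02, 4.21 and 27.8 RPM and blastocysts 2.08, 0.421 and 3.52 RPM. From oocyte to 2-cell LEF1 changed by 0.38 on the log2 scale, less than the median gene at 0.46. In RPM each stage from oocyte to 8-cell lay wholly above the one before, although no single step was called. After that, 16-cell C and morula C, the libraries with the most oocyte-gene RNA of their stages, held 42.9 and 27.8 RPM against at most 12.7 and 4.21 RPM in their stage mates.

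TCF7L2, a factor of the same family, held 16.5, 14.3 and 6.71 RPM in oocytes and 7.19 to 18.6 RPM in 2-cell to 8-cell embryos. It stood at 7.33, 10.8 and 20.2 RPM in 16-cell libraries, 3.32, 13.3 and 20.4 RPM in morulae and 1.79, 8.07 and 0.738 RPM in blastocysts. Blastocysts A and C were the lowest of all libraries, and blastocyst B was within the range of the earlier stages.

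TCF7 and TCF7L1 did not reach the filter and went in opposite directions. TCF7 had 28, 71 and 59 reads in 2-cell and 38, 32 and 34 reads in 8-cell libraries, 0, 3 and 15 in 16-cell libraries, 14 in morula C alone among morulae and 0 in the 3 blastocysts. Its 8-cell mean of 0.6604 ± 0.0218 RPM was at least 9.71-fold higher than 3 reads in each blastocyst library. TCF7L1, mostly a repressor of target genes, had 0, 1 and 0 reads in 16-cell, 3, 8 and 28 reads in morula and 48, 72 and 9 reads in blastocyst libraries, where it reached 1.26 RPM in B.

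CTNNBL1, the member by name only, was level in the first 12 libraries, from 14.5 to 21.7 RPM. It then held 175, 130.4 and 62.5 RPM in 16-cell embryos, 31.6, 92.1 and 64.3 RPM in morulae and 8.97, 5.51 and 13.7 RPM in blastocysts. All 16-cell and morula libraries were above, and all blastocysts below, every earlier library.

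**Figure D3:**
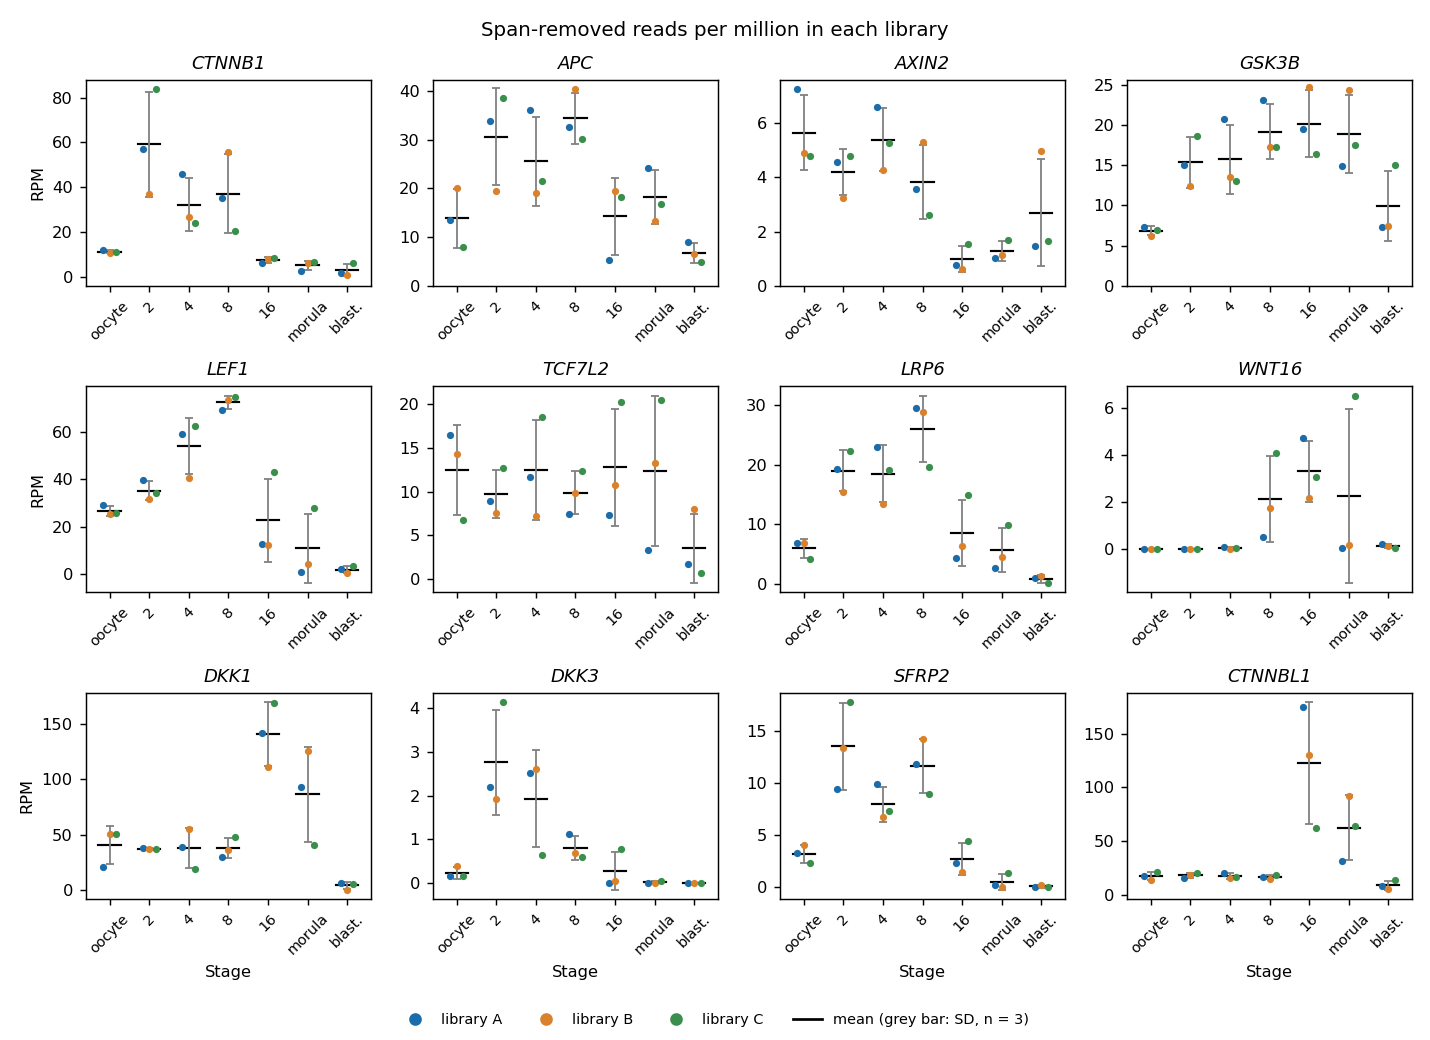
Level of 12 members in each library, in RPM on linear axes that differ between panels, against stage (points: libraries A to C, black line: mean, grey bar: SD, n = 3). CTNNB1, LRP6 and SFRP2 are high from the 2-cell to the 8-cell stage, LEF1 climbs to 72.3 RPM at the 8-cell stage, and DKK1 and CTNNBL1 are highest at the 16-cell stage.

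Of the 21 members tested, 2 had their highest stage mean in oocytes, 4 in 2-cell, 1 in 4-cell, 5 in 8-cell and 5 in 16-cell embryos, 3 in the morula and only FZD7 in the blastocyst. Of all 10384 genes tested, 7.73, 19.8, 6.95, 23.2, 11.02, 16.7 and 14.6% peaked at these stages in turn. Across all stages 18 of the 21 members differed in the F test of limma (adjusted p below 0.05), beside 92.5% of all genes. The exceptions were AXIN1 (adjusted p = 0.372), DVL3 (0.0622) and WNT5A (0.0592). TCF7L2 passed narrowly (0.0485).

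From the oocyte to the 2-cell embryo, the mRNAs of β-catenin, LRP6 and GSK3B and those of the secreted inhibitors SFRP2 and DKK3 rose. The members called were 5 higher and 0 lower of 21, 23.8% beside 14.5% of all genes (14% higher and 0.482% lower). CTNNB1 rose (log2 change 2.24, SE 0.47, adjusted p = 0.00308), as did the inhibitors SFRP2 (log2 change 1.76, SE 0.36, adjusted p = 0.00252) and DKK3 (log2 change 1.57, SE 0.28, adjusted p = 0.000851). DKK3 had passed the filter without an oocyte library. The co-receptor LRP6 (log2 change 1.54, SE 0.44, adjusted p = 0.0191) and the kinase GSK3B (log2 change 1.04, SE 0.35, adjusted p = 0.0428) rose as well. The median log2 change was 0.34 for the members and 0.46 for all genes, so that relative to the median gene CTNNB1 stood at 1.78, SFRP2 at 1.30, DKK3 at 1.12, LRP6 at 1.08 and GSK3B at 0.59.

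The other members gave log2 changes of 1.12 (APC, adjusted p = 0.0891), 1.10 (FZD3, 0.138) and 0.38 (LEF1, 0.759), and DKK1 gave -0.02. FZD6 gave -1.97 with an SE of 0.99 and had the split 2-cell libraries described above. Only DKK3 was called when libraries were scaled by median ratios, which set the median gene near 0. LRP6 lost its call without oocyte C (adjusted p = 0.108), 2-cell A (0.0548) or 2-cell C (0.0823), GSK3B in 19 of 31 other fits, and FZD6 was called lower (log2 change -3.15, adjusted p = 0.0302) without 2-cell B.

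Between the 2-cell and the 4-cell stage limma called none of the 21 members and 0% of all genes. Unadjusted, 326 of the 10384 genes and 0 members had a p below 0.05. Between the 4-cell and the 8-cell stage 0 members were called, beside 0.385% of all genes (0.289% higher and 0.0963% lower). WNT16 had the largest change (log2 change 1.41, SE 0.51, adjusted p = 0.329) and DKK3 the next with an unadjusted p below 0.05 (log2 change -0.63, SE 0.28, adjusted p = 0.472). Leaving out morula C lowered the spread of WNT16, and its rise was then called (log2 change 1.41, adjusted p = 0.00997). With 16-cell C left out as well the adjusted p was 0.0166. WNT16 had passed the filter without a 4-cell library, so a rise was in part built in.

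**Figure D4:**
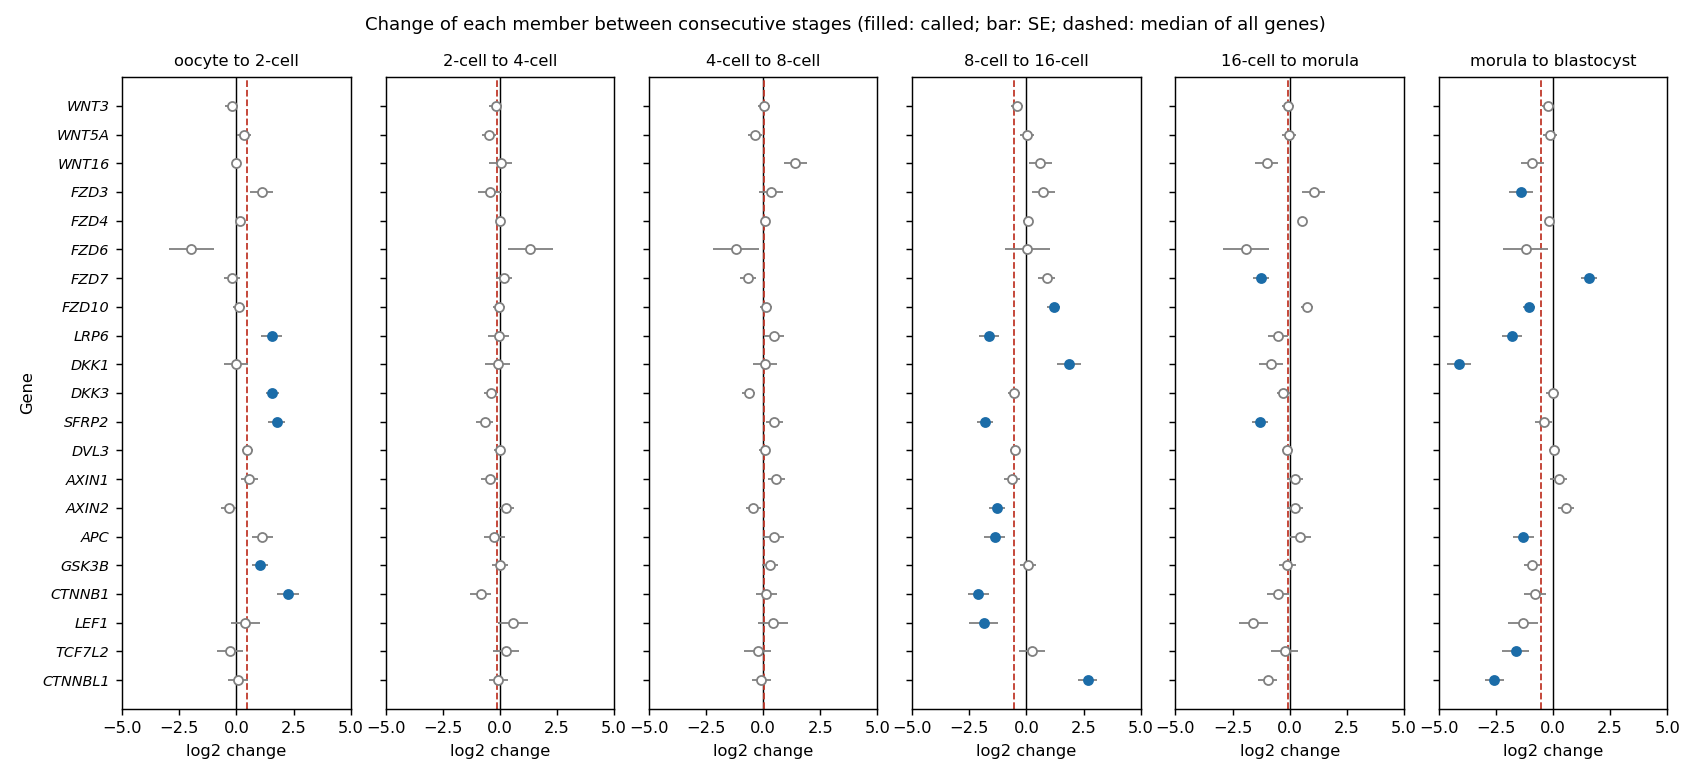
Log2 change of the 21 members (rows) in the 6 consecutive comparisons (panels), on the log2(RPM + 1) scale, with SE bars from limma. Filled points were called, and the dashed line is the median of all genes. Filled points lie to the right from oocyte to 2-cell, on both sides from 8-cell to 16-cell, and to the left, except FZD7, from morula to blastocyst.

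From the 8-cell to the 16-cell stage CTNNB1, LEF1, APC, AXIN2, LRP6 and SFRP2 fell, and DKK1, FZD10 and CTNNBL1 rose. Of 21 members 3 were higher and 6 lower, 42.9% beside 46.1% of all genes (15.4% higher and 30.7% lower), so the share of members called was near that of all genes. Among those that fell were CTNNB1 (log2 change -2.10, SE 0.47, adjusted p = 0.00108), LEF1 (log2 change -1.86, SE 0.64, adjusted p = 0.01802), LRP6 (log2 change -1.64, SE 0.44, adjusted p = 0.00415) and SFRP2 (log2 change -1.82, SE 0.36, adjusted p = 0.000373). The scaffolds APC (log2 change -1.38, SE 0.46, adjusted p = 0.0147) and AXIN2 (log2 change -1.27, SE 0.34, adjusted p = 0.00401) fell too. DKK1 rose (log2 change 1.86, SE 0.53, adjusted p = 0.00604), as did the receptor FZD10 (log2 change 1.19, SE 0.28, adjusted p = 0.00131) and, outside the pathway, CTNNBL1 (log2 change 2.68, SE 0.43, adjusted p = 4.09e-05). FZD10 had passed the filter without an 8-cell library.

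The median change was 0.04 for the members and -0.52 for all genes at this step. Relative to the median gene CTNNB1 stood at -1.58, LEF1 at -1.34, SFRP2 at -1.30, LRP6 at -1.12, APC at -0.86 and AXIN2 at -0.75, and DKK1 at 2.38. GSK3B (0.06), TCF7L2 (0.25), AXIN1 (-0.62), DVL3 (-0.49), WNT16 (0.60) and FZD6 (0.04) were not called, and FZD7 (0.88, adjusted p = 0.0392) missed the size threshold. FZD7 reached it under median-ratio scaling (1.30, adjusted p = 0.0264).

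The split of 3 higher and 6 lower became 4 and 4 when RPM was taken over gene reads only, and 4 and 3 under median-ratio scaling, where APC (adjusted p = 0.0809), LEF1 (0.0707) and AXIN2 (0.0713) missed the threshold. Without 16-cell C and morula C it was again 3 and 6. LEF1 was lost without 16-cell A (0.0836) or B (0.0813), APC without 8-cell B (0.0551) or 16-cell A (0.136), and FZD10 fell to a log2 change of 0.87 without 16-cell B. The calls of CTNNB1, CTNNBL1, DKK1 and LRP6 held in every fit run in which they were tested.

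From the 16-cell stage to the morula 2 members were lower and 0 higher, 9.52% beside 17% of all genes (9.44% higher and 7.59% lower). They were FZD7 (log2 change -1.24, SE 0.35, adjusted p = 0.0174) and SFRP2 (log2 change -1.30, SE 0.36, adjusted p = 0.0149). DKK1 (-0.82, adjusted p = 0.285), LEF1 (-1.59, 0.0835), FZD3 (1.04, 0.155) and FZD10 (0.75, 0.05795) did not pass. The median change was -0.22 for members and -0.09 for all genes.

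This comparison turned on single libraries. Without morula C, or without it and 16-cell C, 6 members were called, 1 higher and 5 lower. Without both, FZD3 rose (log2 change 1.72, adjusted p = 0.00785) and LEF1 (-2.07, 0.00219), WNT16 (-1.95, 0.000440), CTNNBL1 (-1.46, 0.0165), FZD7 and SFRP2 fell. WNT16 then passed the filter without a morula library. Without morula A none was called, and without 16-cell A or morula B only 1. SFRP2 lost its call without 16-cell C (0.0787), morula A (0.0722) or morula B (0.0872), and FZD7 without 16-cell A (0.0698) or morula A (0.101).

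From the morula to the blastocyst DKK1, LRP6 and several intracellular genes fell, and FZD7 rose. The members called were 1 higher and 7 lower, 38.1% beside 35.9% of all genes (7.74% higher and 28.1% lower), again a share near that of all genes. DKK1 had the largest change of any member between consecutive stages (log2 change -4.11, SE 0.53, adjusted p = 3.05e-06), followed by CTNNBL1 (log2 change -2.57, SE 0.43, adjusted p = 6.06e-05) and LRP6 (log2 change -1.79, SE 0.44, adjusted p = 0.00267). TCF7L2 (log2 change -1.64, SE 0.58, adjusted p = 0.0283), APC (log2 change -1.29, SE 0.46, adjusted p = 0.02797), FZD3 (log2 change -1.40, SE 0.52, adjusted p = 0.0349) and FZD10 (log2 change -1.05, SE 0.28, adjusted p = 0.004197) fell. FZD7 rose (log2 change 1.56, SE 0.35, adjusted p = 0.001302), against the direction of the other receptors called.

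Relative to the median gene, which changed by -0.50, DKK1 stood at -3.60, CTNNBL1 at -2.06, LRP6 at -1.29, TCF7L2 at -1.13, FZD3 at -0.89, APC at -0.79 and FZD10 at -0.54, and FZD7 at 2.06. The median of the members was -0.91. Values for members not called were -1.31 for LEF1 (adjusted p = 0.108), -0.80 for CTNNB1 (0.187), -0.91 for GSK3B (0.0454), 0.58 for AXIN2 (0.187) and -0.91 for WNT16 (0.158).

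The split of 1 higher and 7 lower was 3 and 3 with RPM over gene reads. WNT5B (1.45, adjusted p = 2.62e-05) and TCF7L1 (1.13, 0.0173) were the rises added there. Both lay below the main filter and passed that one through their late libraries, so a rise was in part built in. Under median-ratio scaling the split was 2 and 3. AXIN2 was then called higher (1.31, adjusted p = 0.0126), and TCF7L2, APC, FZD3 and FZD10 were not called. These 4 also depended on single libraries. TCF7L2 was lost without morula B, morula C (adjusted p = 0.147), blastocyst A or blastocyst C, APC without morula A, blastocyst B or blastocyst C, FZD3 without morula A, morula B, blastocyst B or blastocyst C, and FZD10 without morula A, morula B, blastocyst A or blastocyst C. Without morula B, 5 members were called. GSK3B was called lower without morula A (-1.05, adjusted p = 0.0375) or blastocyst C (-1.22, 0.00922), and CTNNB1 without blastocyst C (-1.36, 0.0222). LEF1 (-2.18, 0.00602) and WNT16 (-1.42, 0.0315) were called lower without morula A. WNT16 had passed the filter without a blastocyst library.

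Between the ends of the series, oocyte and blastocyst, 2 members were higher and 8 lower, 47.6% beside 57.4% of all genes (20.8% higher and 36.6% lower). FZD6 (log2 change -4.88, SE 0.99, adjusted p = 0.000294), LEF1 (log2 change -3.36, SE 0.64, adjusted p = 8.93e-05) and DKK1 (log2 change -3.08, SE 0.53, adjusted p = 2.87e-05) fell most. LRP6 (-1.97, adjusted p = 0.0005102), SFRP2 (-1.94, 6.91e-05), CTNNB1 (-1.87, 0.00149), TCF7L2 (-1.85, 0.00797) and WNT3 (-1.05, 0.00149) fell too, and the receptors FZD3 (1.40, 0.0208) and FZD10 (1.10, 0.00138) rose. WNT3 had passed the filter without a blastocyst library and FZD10 without an oocyte library. The medians were -0.88 for members and -0.44 for all genes. The comparison shares its oocyte libraries with the oocyte to 2-cell comparison and its blastocysts with the preceding one.

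With RPM over gene reads the split was 6 and 8, with FZD4 (1.59, adjusted p = 0.000702), WNT11 (1.46, 0.00179), WNT5B (1.47, 5.44e-06) and TCF7L1 (1.62, 0.000482) among the rises. The last 3 passed that filter through their late libraries, so a difference was built in. Median-ratio scaling gave 5 and 8, with AXIN1, FZD4 and FZD7 added. FZD3 was lost without oocyte C (adjusted p = 0.0631), blastocyst A (0.125) or blastocyst C (0.0583), TCF7L2 without blastocyst C (0.0653), and FZD10 fell to a log2 change of 0.85 without blastocyst B.

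Genes of the pathway outside the symbol rule were read from 6 fixed lists in the same fit. Their counts are set beside the share of all genes called in each comparison, and no difference from it was tested. From the oocyte to the 2-cell stage, where 14% of all genes rose and 0.482% fell, 5 of 17 other cytoplasmic genes, 4 of 16 nuclear cofactors and 4 of 20 genes of the planar polarity and calcium branches rose and none fell, with medians of 0.80, 0.74 and 0.68 beside 0.46 for all genes. BTRC, the ubiquitin ligase subunit that recognises marked β-catenin, went from 12.6 ± 0.395 to 44.4 ± 7.02 RPM (log2 change 1.73, SE 0.39, adjusted p = 0.00486), and the planar polarity gene PRICKLE1 from 4.37 ± 1.73 to 23.9 ± 7.54 RPM (log2 change 2.22, SE 0.45, adjusted p = 0.00222). Under median-ratio scaling no cytoplasmic or nuclear gene of these lists was called, and 1 planar gene rose and 1 fell. None of 8 other agonist and receptor genes, 3 other inhibitors or 9 target genes was called.

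At the 2-cell to 4-cell and 4-cell to 8-cell steps no gene of the 6 lists was called. Without 16-cell C and morula C, or with RPM over gene reads, 1 target gene rose from the 4-cell to the 8-cell stage.

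At the 8-cell to 16-cell step 15.4% of all genes rose and 30.7% fell, and 5 of the lists likewise held more falls than rises. Of the agonists and receptors 4 of 8 fell (median -1.40), of the cytoplasmic genes 2 rose and 6 fell of 17 (-0.91), of the planar and calcium genes 2 rose and 9 fell of 20 (-0.83), of the nuclear genes 3 rose and 5 fell of 16 (-0.28), and 2 of 3 inhibitors fell (-1.50), beside a median of -0.52 for all genes. BTRC fell from 55.3 ± 11.6 to 6.92 ± 4.76 RPM (log2 change -2.97, SE 0.39, adjusted p = 4.41e-06). The WNT receptor RYK fell from 32.9 ± 4.32 to 8.28 ± 5.21 RPM (log2 change -1.997, SE 0.35, adjusted p = 0.000114). The secreted inhibitor WIF1 fell from 9.76 ± 2.12 to 2.54 ± 1.91 RPM (log2 change -1.75, SE 0.45, adjusted p = 0.00282). The formin DAAM1, which acts below DVL, fell from 521 ± 140.0 to 123 ± 84.2 RPM (log2 change -2.25, SE 0.56, adjusted p = 0.00218). HDAC2, a histone deacetylase, rose from 19.5 ± 2.16 to 271 ± 75.3 RPM (log2 change 3.69, SE 0.39, adjusted p = 1.98e-07). Median-ratio scaling turned the cytoplasmic split to 4 rises and 2 falls and the nuclear one to 3 and 1, and left 2 falls among the agonists and receptors.

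The fixed list of WNT target genes held more rises than falls at this step, with 5 rises and 1 fall of 9 and a median of 1.42. MYC reached 1 RPM in 7 libraries, none before the 16-cell stage, so its rise was in part built in by the filter. MYC rose from 0.929 ± 0.0427 to 79.8 ± 39.6 RPM (log2 change 5.23, SE 0.81, adjusted p = 5.23e-05) and VEGFA, a vessel growth factor, from 1.77 ± 0.298 to 25.99 ± 14.4 RPM (log2 change 3.11, SE 0.51, adjusted p = 6.08e-05). MSX1, a homeobox gene, fell from 19.4 ± 0.867 to 4.21 ± 3.84 RPM (log2 change -2.21, SE 0.51, adjusted p = 0.00122). These genes answer to many signals, and AXIN2, the member among the usual targets, fell at the same step. The target counts were 6 and 1 without 16-cell C and morula C, and also under either other scaling.

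From the 16-cell stage to the morula, where 9.44% of all genes rose and 7.59% fell, 3 cytoplasmic genes rose and 1 fell of 17, 2 nuclear genes rose of 16, 1 planar or calcium gene rose and 1 fell of 20, and 1 agonist or receptor, 1 inhibitor and 1 target gene fell. Without 16-cell C and morula C, 1 agonist or receptor rose and 3 fell, 3 nuclear genes rose and 2 fell, 3 cytoplasmic genes rose and 2 fell, 2 target genes fell and the planar or calcium fall was lost. CSNK1A1, the kinase that primes β-catenin for GSK3, rose from 40.5 ± 13.7 to 132 ± 34.6 RPM (log2 change 1.69, SE 0.34, adjusted p = 0.00178). FRZB, an inhibitor related to SFRP genes, fell from 23.4 ± 11.1 to 7.17 ± 11.05 RPM (log2 change -2.49, SE 0.72, adjusted p = 0.0197), a call lost without 16-cell A (adjusted p = 0.0693), 16-cell C (0.0770), morula A (0.153) or morula B (0.0977).

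From the morula to the blastocyst, where 7.74% of all genes rose and 28.1% fell, 2 of 8 agonists and receptors rose and 1 fell. RSPO3, which strengthens WNT signals by sparing FZD receptors from turnover, rose from 1.37 ± 1.87 to 14.8 ± 2.01 RPM (log2 change 3.002, SE 0.31, adjusted p = 1.35e-07), its receptor LGR5 from 0.106 ± 0.0937 to 2.97 ± 1.87 RPM (log2 change 1.74, SE 0.24, adjusted p = 8.68e-06), and RSPO2 fell from 17.2 ± 25.003 to 0.168 ± 0.167 RPM (log2 change -2.75, SE 0.71, adjusted p = 0.00396). TLE3, a co-repressor that binds TCF factors, rose from 0.484 ± 0.0399 to 13.9 ± 5.46 RPM (log2 change 3.26, SE 0.23, adjusted p = 2.46e-10). LGR5 and TLE3 reached 1 RPM in the 3 blastocyst libraries alone and RSPO3 in those and morula A, so a rise was built in by the filter. Of the other lists, 6 of 17 cytoplasmic and 6 of 16 nuclear genes fell, with 0 and 1 rises, 2 planar or calcium genes rose and 4 fell of 20, none of the 3 inhibitors was called, and 1 target rose and 4 fell of 9. The target that rose was again LGR5, which stands in both the target list and the agonist and receptor list. HDAC2 fell from 303 ± 141 to 45.1 ± 8.398 RPM (log2 change -2.60, SE 0.39, adjusted p = 1.8e-05) and MYC from 40.5 ± 38.96 to 4.63 ± 7.02 RPM (log2 change -2.89, SE 0.81, adjusted p = 0.00756), the latter lost without morula C (adjusted p = 0.0572). Under median-ratio scaling the cytoplasmic and nuclear splits were 3 and 3 each, and 1 target rose and 1 fell. Without 16-cell C and morula C, 0 cytoplasmic genes rose and 4 fell, 2 nuclear genes rose and 4 fell, and 2 planar or calcium genes rose and 2 fell.

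Between oocyte and blastocyst, where 20.8% of all genes rose and 36.6% fell, 5 of 8 agonists and receptors and all 3 inhibitors tested fell, and 2 agonists or receptors rose. Of the target genes 5 rose and 2 fell of 9, of the nuclear genes 4 rose and 3 fell of 16, of the cytoplasmic genes 4 rose and 7 fell of 17, and of the planar and calcium genes 5 rose and 5 fell of 20. Medians were -2.14 for agonists and receptors, -2.90 for inhibitors and 1.33 for targets, beside -0.44 for all genes.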

How the data were processed

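RNA-seq of 21 goat libraries was used, 3 at each of 7 stages. The authors deposited 1 table of RPKM values with gene positions. The submitters' processing notes list Partek, STAR 2.5.3a and FastQC. The build, strandedness and counting of reads were not given in the sources used here, and coordinates are printed as the table has them. The deposited RPKM carries an offset of 0.01 and is divided by stop minus start. Multiplying back gave RPM, of which 95.5 to 97.1% of values up to 10 reads were whole reads within 0.05 of a step, in every library.

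Members and lists were chosen with earlier results of these data known. Genes at 1 RPM or more in at least 3 libraries were tested on log2(RPM + 1) with limma 3.58.1 (trend and robust, R 4.3.3) in 1 model of all libraries, two-sided, and the fitting script was tested on simulated data. Named with values in every library are members called in at least 1 of 7 comparisons or reaching a stage mean of 20 RPM. WNT16 and the reads per library of low members were added after their values were seen. From each list of other pathway genes up to 2 rises and 2 falls per comparison could be named, by size, and a subset of these is printed. Alternatives were pseudocounts of 0.1 and 5, other filters, RPKM in place of RPM, 2 other scalings, a block for the letter, pairs of stages alone and each library left out. Tables and figures came from pandas 2.3.3 with numpy 2.4.6, and from matplotlib 3.10.9, under Python 3.11.15.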

Additional observations from a re-analysis of the deposited data

How the results depend on the processing

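No call of a single member changed direction in the fits run. Of the 34 calls, 8 held in every fit that tested the gene. They were CTNNB1, CTNNBL1, DKK1 and LRP6 from 8-cell to 16-cell, CTNNBL1 and DKK1 from morula to blastocyst, and DKK1 and LEF1 from oocyte to blastocyst. CTNNBL1, LRP6 and LEF1 were not tested with RPKM and its own filter. Leaving out 1 library kept 667 of 711 calls, leaving out 16-cell C and morula C kept 33 of 34, and median-ratio scaling 23 of 34. Most of the 711 left out a library of a stage outside the comparison, which leaves the log2 change as it was. Most losses came from libraries of the stages compared, so the share of calls kept is higher than for those libraries alone.

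Counts of members called moved as follows. From oocyte to 2-cell, 5 became 2 with a pseudocount of 0.1, 3 with 5, 3 with a filter of 5 RPM, 1 with RPKM and its own filter (6 members tested), 2 with RPKM less its offset plus 0.05, and 1 with median ratios. From 4-cell to 8-cell, 0 became 1 without 16-cell C and morula C. From 8-cell to 16-cell, 9 became 2 with RPKM. From 16-cell to morula, 2 became 0 with a pseudocount of 5, 0 with RPKM, 0 with the 2 stages alone, and 6 without 16-cell C and morula C. From morula to blastocyst, 8 became 2 with a pseudocount of 5, 1 with RPKM, 5 with RPKM plus 0.05, 5 with median ratios and 3 with the 2 stages alone. From oocyte to blastocyst, 10 became 5 with a pseudocount of 5 and 1 with RPKM. Differing across stages were 18, or 6 with RPKM, all that it tested. A pseudocount of 5 shrinks the change of low genes by its construction.

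With 1 library left out the counts ranged from 3 to 6 (oocyte to 2-cell, lowest without oocyte C, 2-cell A or 2-cell C), 0 to 0, 0 to 1 (without morula C), 7 to 10, 0 to 6 (0 without morula A, 6 without morula C), 5 to 8 (5 without morula B), 9 to 11 (oocyte to blastocyst) and 16 to 19 (all stages).

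The letters gave no sign of pairing the libraries, and their meaning was not given in the sources used here. Deviations of same-letter libraries correlated above 0.1 in 13 of 63 pairs (mean -0.00362), and 7 of 21 libraries correlated best with their own letter. With the letter as a replicate block the counts were 4, 0, 0, 9, 2, 8 and 10, and 19 across stages, and GSK3B lost its call from oocyte to 2-cell (adjusted p = 0.0572). The alternatives for the lists of other pathway genes were chosen after seeing the data. Depth limits the 25 members below the filter, which were tested only where another scaling or filter let them pass.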

Other observations

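Of the 21 members tested, 11 (52.4%) had their highest value of the stage in library C at both the 16-cell stage and the morula, as did 3754 (36.2%) of all 10384 genes: AXIN1, AXIN2, CTNNB1, DKK3, DVL3, FZD6, LEF1, LRP6, SFRP2, TCF7L2 and WNT3. In morula C LEF1 held 27.8 RPM, LRP6 9.91 RPM, SFRP2 1.41 RPM, TCF7L2 20.4 RPM, FZD6 8.72 RPM and DKK3 0.0321 RPM. The same library held the lowest morula values of DKK1 (40.7 RPM), FZD3 (3.52 RPM) and FZD10 (2.57 RPM). The 16-cell means of these 3 were 140.5 ± 28.9, 6.22 ± 3.42 and 2.14 ± 1.302 RPM (SD, n = 3). Its summed oocyte-gene level of 1115 RPM lay between those of 8-cell and of morula libraries A and B.

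COL28A1 and SCPEP1 were the other genes tested whose libraries spanned as much as those of FZD6 at both the 2-cell and the 4-cell stage. SCPEP1 held 8.98, 389.7 and 3.30 RPM in 2-cell A, B and C and 262, 7.98 and 2.47 RPM in 4-cell A, B and C. COL28A1 held 233, 0.295 and 0.495 RPM in the 2-cell libraries and 0.517, 285 and 162 RPM in the 4-cell libraries. The libraries that were high differed between the 3 genes: FZD6 was high in 2-cell B, 4-cell A and 4-cell C, SCPEP1 in 2-cell B and 4-cell A, and COL28A1 in 2-cell A, 4-cell B and 4-cell C. These genes were singled out after their values were seen.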
